A study of Mus musculus with 2 samples.

Results

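The transcripts of 9 genes of bone morphogenetic protein (BMP) signaling were followed through the nuclei of mouse colon. They are the ligand genes Bmp2, Bmp4, Bmp5 and Bmp7, the genes of the secreted antagonists Grem1 and Chrdl1, and the target genes Id1, Id2 and Id3. They were taken by their exact symbols from the 32285 genes counted, and were chosen with earlier results of these data known. All 9 had UMIs (unique molecular identifiers, each a count of 1 captured transcript) in both libraries. Single-nucleus RNA sequencing had been done on frozen colon of WT littermates and of mice with loxP-flanked HIF-1α alleles and Cre driven by Ncr1, here called HIF-1α KO. Ncr1 encodes NKp46, so the deletion is aimed at NKp46+ innate lymphoid and natural killer cells, and the genes studied here are read in cells that keep HIF-1α by design. Both groups, aged 8 to 12 weeks, had been given 2% DSS (dextran sulfate sodium, which injures the colonic epithelium) for 3 days followed by 4 days of recovery, in 4 cycles up to day 28. Each genotype is a single 10x Genomics 3′ library made from a pool of 3 animals, so a difference between the genotypes has no replicate check, no test between them was possible, and every interval below covers counting error only.

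BMP ligands are secreted dimers that bind type I and type II receptor kinases, which phosphorylate the receptor Smads, and these enter the nucleus with Smad4. In the gut, BMP activity is known to be high towards the luminal end of the crypt and low at its base, where antagonists made by cells beneath the crypt hold it down and let stem cells renew. Id1, Id2 and Id3 encode inhibitors of basic helix-loop-helix transcription factors and are classic direct targets of the receptor Smads, so they are commonly read as a record of the signal a cell has received.

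Nuclei were kept when they had 400 to 5000 detected genes and at most 10% of their UMIs in mitochondrial genes, which were 4884 of 4896 barcodes in WT and 4702 of 4772 in HIF-1α KO. The HIF-1α KO library was deeper, with a median of 4197 UMIs per nucleus against 2058.5 in WT. Levels are therefore given as CPM, the UMIs of a gene per 1000000 UMIs of all genes in the same nuclei, with a 95% exact Poisson interval in brackets. Clustering without the 9 genes and 47 further genes of the pathway gave 24 clusters. From the markers of other genes, 20 of these took the name of a class, written with "-like", and the classes of epithelium, muscle, stroma, vessels, nerve and blood found in them are those of a colon. Of the 4 clusters without a name, 3 large ones of epithelium are given by number, and 11 named classes with at least 50 nuclei were compared. The libraries share 3 barcodes. Ncr1 had 1 UMI in WT and 0 in HIF-1α KO, and Hif1a was at 172 CPM and 199 CPM over all nuclei, so neither gene could check the genotype labels, since the cells aimed at are too rare here.

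The RefSeq promoter table of build GRCm38.p6 held 5 of the 9 genes, and 4 of those promoters are printed, because Id2 and Id3 are Smad targets while Bmp5 and Grem1 had the most stromal UMIs among the ligands and antagonists of the 9 genes. Each covers 250 bases before and 50 bases after the RefSeq start of transcription, 5′ to 3′ on the strand of the gene. The capitals mark every GGCGCC, a GC-rich sequence that receptor Smads of the BMP branch are known to bind, and every GTCT or its reverse complement AGAC, the short Smad-binding sequence. GGCGCC reads the same on both strands, and no match of one motif overlaps a match of the other.
Id2 promoter (chr12:25096043-25096342, minus strand): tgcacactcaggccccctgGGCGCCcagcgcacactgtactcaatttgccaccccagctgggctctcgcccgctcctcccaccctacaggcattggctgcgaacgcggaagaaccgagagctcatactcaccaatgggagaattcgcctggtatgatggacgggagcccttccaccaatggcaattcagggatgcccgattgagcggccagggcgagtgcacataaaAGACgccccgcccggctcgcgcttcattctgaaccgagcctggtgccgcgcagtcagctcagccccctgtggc
Id3 promoter (chr4:136143572-136143871, plus strand): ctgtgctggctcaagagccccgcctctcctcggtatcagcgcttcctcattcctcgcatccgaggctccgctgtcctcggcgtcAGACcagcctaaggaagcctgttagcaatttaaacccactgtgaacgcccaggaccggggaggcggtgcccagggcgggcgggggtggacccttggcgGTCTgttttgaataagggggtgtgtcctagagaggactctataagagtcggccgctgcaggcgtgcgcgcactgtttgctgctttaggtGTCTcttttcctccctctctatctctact
Bmp5 promoter (chr9:75775115-75775414, plus strand): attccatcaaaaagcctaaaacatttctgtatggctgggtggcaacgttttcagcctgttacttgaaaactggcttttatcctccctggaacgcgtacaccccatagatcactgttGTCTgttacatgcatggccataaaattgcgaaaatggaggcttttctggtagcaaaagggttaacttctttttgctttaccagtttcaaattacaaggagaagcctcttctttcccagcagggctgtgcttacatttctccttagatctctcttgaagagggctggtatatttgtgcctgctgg
Grem1 promoter (chr2:113758599-113758898, minus strand): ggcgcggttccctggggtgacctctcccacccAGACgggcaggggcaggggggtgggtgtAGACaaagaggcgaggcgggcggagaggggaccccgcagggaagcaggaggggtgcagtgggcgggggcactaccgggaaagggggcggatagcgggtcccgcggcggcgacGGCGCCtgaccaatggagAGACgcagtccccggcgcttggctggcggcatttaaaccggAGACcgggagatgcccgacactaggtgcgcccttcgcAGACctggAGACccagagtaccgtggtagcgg
The Id2 promoter held GGCGCC once, its first base 231 bases before the start, and AGAC once. The Id3 promoter held no GGCGCC in this window but GTCT or AGAC 3 times. In the Grem1 promoter GGCGCC lay 78 bases before the start and AGAC occurred 6 times, whereas the Bmp5 promoter held a single GTCT. For comparison, 11.9% of all 32851 promoters in the table held GGCGCC and 88.0% held GTCT or AGAC, with at least 3 copies in 39.6% and at least 6 copies in 3.52%. These matches are letters in a window of sequence and not measured binding sites.

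The ligands Bmp4, Bmp5 and Bmp7 were transcripts of the stroma. Of the 9 genes, 4 (Bmp4, Bmp5, Bmp7 and Grem1) were at least 2-fold higher in the fibroblast-like nuclei than in all other nuclei of the same library, in both libraries, a call that 10.1% of 14393 genes with at least 50 UMIs met. Fibroblast-like nuclei numbered 252 in WT and 129 in HIF-1α KO. Smooth muscle-like nuclei, which numbered 277 and 129, met the call for Grem1 and Chrdl1 (2 of 9 genes, against 7.65% of all genes). Bmp2 alone met it in the surface absorptive-like nuclei (1 of 9, against 5.41%), a count near that share. Bmp2 was read in fibroblast-like nuclei as well.

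**Figure D1:**
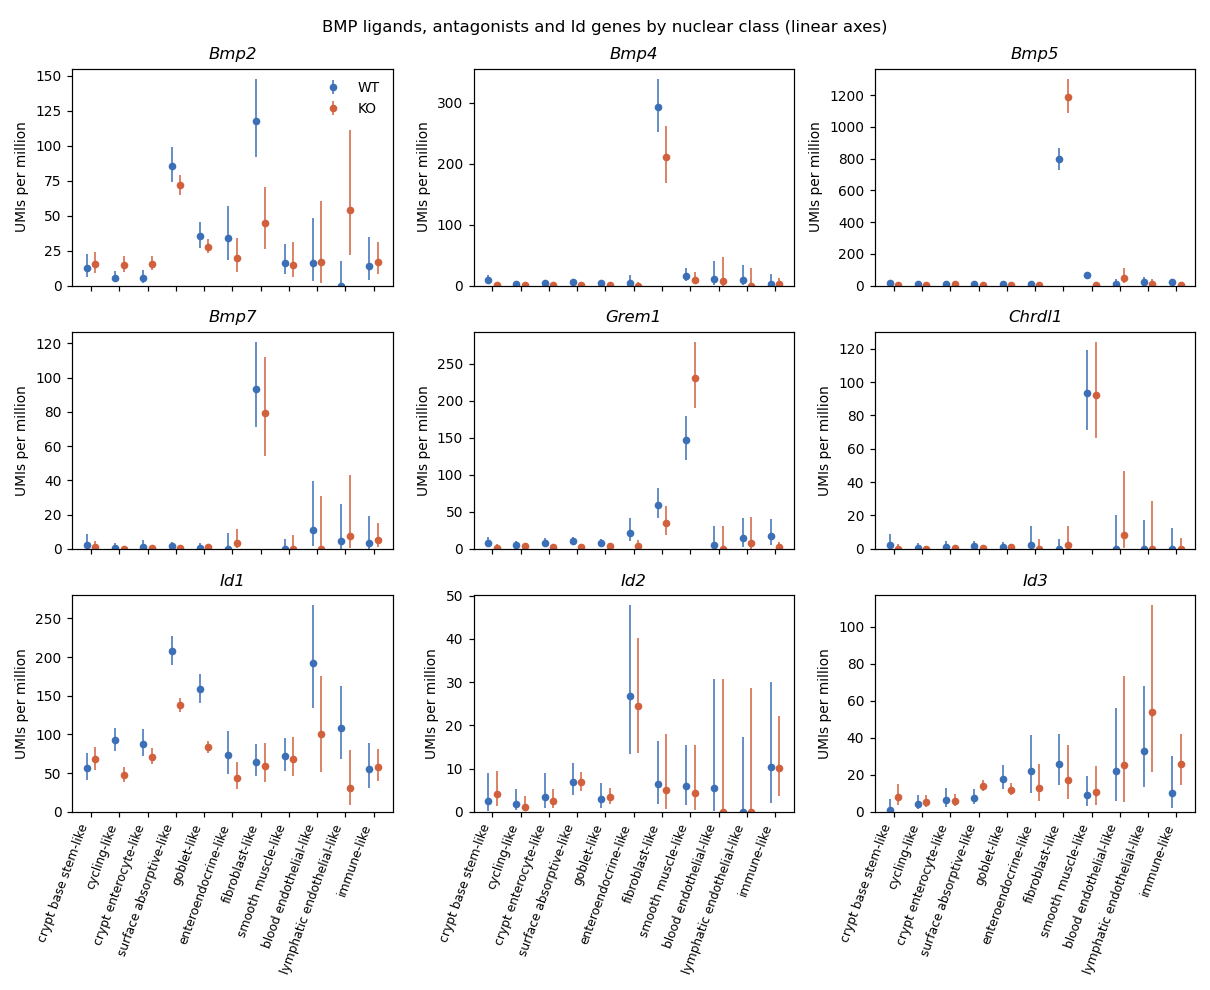
Level of each of the 9 genes (y axis, UMIs per 1000000, linear and starting at 0) in the 11 named classes of nuclei (x axis) of the WT and HIF-1α KO libraries; points are 1 library each and bars are 95% exact Poisson intervals. Bmp4, Bmp5 and Bmp7 stand out in fibroblast-like nuclei, Grem1 and Chrdl1 in smooth muscle-like nuclei, and Id1 and Bmp2 rise from crypt base stem-like to surface absorptive-like nuclei.

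Bmp5 (chr9:75775364-75900310, plus strand, GRCm38) encodes a ligand of the BMP5, 6 and 7 subgroup. It was at 796 CPM [727 to 869] in WT and 1190 CPM [1086 to 1302] in HIF-1α KO fibroblast-like nuclei, which held 68.0% and 79.6% of all Bmp5 UMIs of their libraries although the class made up 4.68% and 1.70% of all UMIs. The log2 ratio to all other nuclei was 5.44 in WT and 7.81 in HIF-1α KO. The share of fibroblast-like nuclei with a Bmp5 UMI was 53.2% in WT, at a median depth of 1954 UMIs, and 58.1% in HIF-1α KO, at 2403 UMIs. After thinning to 1000 UMIs per nucleus, which left out 5 of these HIF-1α KO nuclei and none in WT, the shares were 38.9% and 46.0%.

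The epithelium, where Bmp5 is not known to be made, was read as the background, since droplets also take up free RNA from the suspension. Thinned in the same way, 0.765% of WT and 0.717% of HIF-1α KO surface absorptive-like nuclei had a Bmp5 UMI, at median depths of 3527 and 5949 UMIs. Across the 6 named epithelial classes Bmp5 ranged from 7.26 to 16.0 CPM in WT and from 3.68 to 7.39 CPM in HIF-1α KO, and it was higher in WT in 6 of 6. Bmp4 and Grem1 were also higher in WT in 6 of 6 epithelial classes. The unnamed epithelial cluster 2, the one with the largest share of ribosomal protein UMIs (0.91% in WT and 1.80% in HIF-1α KO), had the most, with Bmp5 at 50.9 CPM and 39.3 CPM. The larger class ratios of HIF-1α KO thus stood beside a lower level in the nuclei compared against, and the part of free RNA in this was not tested.

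Bmp4 (chr14:46383520-46390669, minus strand), a ligand of the BMP2 and BMP4 subgroup, reached 293 CPM [252 to 339] in WT and 211 CPM [169 to 261] in HIF-1α KO fibroblast-like nuclei. Outside them its level was below 20 CPM in each of the other 10 named classes in both libraries. The class held 67.7% of the Bmp4 UMIs in WT and 67.5% in HIF-1α KO. Its log2 ratio to all other nuclei was 5.41 in WT and 6.90 in HIF-1α KO.

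Bmp7 (chr2:172868012-172940321, minus strand) was the sparsest ligand, with 76 UMIs in WT and 46 in HIF-1α KO over all nuclei. Of these, 58 and 32 lay in fibroblast-like nuclei, which is 93.5 CPM [71.0 to 121] and 79.5 CPM [54.4 to 112]. Smooth muscle-like nuclei had 0 Bmp7 UMIs in both libraries, which allows up to 4.51 CPM in WT and 6.42 CPM in HIF-1α KO at 3 UMIs. Within the stroma Bmp7 was thus read in the fibroblast-like class and not in the smooth muscle-like class.

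Bmp2 (chr2:133552159-133562885, plus strand) differed from the other ligands in that the surface epithelium held much of it, beside the fibroblast-like nuclei. The surface absorptive-like class is named for the mature absorptive cells of the luminal end. Its nuclei were at 85.7 CPM [73.9 to 98.9] in WT and 71.7 CPM [65.1 to 78.8] in HIF-1α KO and held 42.9% and 53.5% of the Bmp2 UMIs. Fibroblast-like nuclei were at 118 CPM [92.2 to 148] in WT but 44.7 CPM [26.5 to 70.7] in HIF-1α KO, where 18 UMIs were counted. The fibroblast-like ratio passed 2-fold only in WT, with a log2 ratio of 2.01 against 0.41 in HIF-1α KO.

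The antagonists had their highest levels in smooth muscle-like nuclei. Grem1 (chr2:113746164-113758646, minus strand) encodes gremlin 1, which binds BMP2, BMP4 and BMP7 and keeps them from their receptors. It was at 147 CPM [119 to 179] in WT and 231 CPM [190 to 279] in HIF-1α KO smooth muscle-like nuclei, against 59.6 CPM [42.0 to 82.2] and 34.8 CPM [19.0 to 58.4] in fibroblast-like nuclei. The intervals of these classes did not overlap in either library.

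Chrdl1 (chrX:143285674-143394262, minus strand), which encodes the chordin-like BMP antagonist 1, was narrower. Smooth muscle-like nuclei were at 93.1 CPM [71.4 to 119] in WT and 92.0 CPM [66.6 to 124] in HIF-1α KO and held 69.7% and 70.5% of its UMIs. Fibroblast-like nuclei had 0 Chrdl1 UMIs in WT and 1 in HIF-1α KO. The classes at 2-fold were thus split, with the ligand genes Bmp4, Bmp5 and Bmp7 on the fibroblast-like side, Chrdl1 on the smooth muscle-like side and Grem1 on both.

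The nuclei of both stromal classes were clustered again, which gave 9 subclusters. Subcluster 2, with 71 WT and 32 HIF-1α KO nuclei, was led by Mmp13 and Sox6 and had 3 of 5 markers of subepithelial telocytes, the sheet-forming fibroblasts beneath the epithelium. The defining marker Foxl1 had only 2 and 1 UMIs there. F3, also on the list, had 17 and 12 UMIs, did not pass and was found in other subclusters too. The name therefore rests on Sox6, Wnt5a and Pdgfra. Adamdec1, a marker of the lamina propria list, was as high there (509 CPM in WT and 521 CPM in HIF-1α KO) as in subcluster 1 (383 CPM and 461 CPM). Subcluster 1, with 74 and 41 nuclei, was led by Edil3 and Lepr and had 3 of 5 markers of lamina propria fibroblasts. Subclusters 4 and 5 were smooth muscle-like, and the other 5 stayed without a name.

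The telocyte-like subcluster held most stromal Bmp5 and Bmp7 transcripts and, in WT, most stromal Bmp2. Its Bmp5 level was 1518 CPM [1360 to 1689] in WT and 2574 CPM [2312 to 2858] in HIF-1α KO, and it held 62.8% and 72.8% of the Bmp5 UMIs of all stromal nuclei while being 13.4% and 12.4% of those nuclei. For Bmp7 the shares were 82.8% of 58 UMIs and 84.4% of 32 UMIs. Bmp2 was at 270 CPM [206 to 348] there in WT and 80.7 CPM [40.3 to 144] in HIF-1α KO, from 60 and 11 UMIs. Antagonists were scarce in the same nuclei, with 4 and 5 Grem1 UMIs and 0 Chrdl1 UMIs in both libraries.

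Bmp4 did not follow this split. It was at 411 CPM [323 to 515] in WT and 346 CPM [249.2 to 467] in HIF-1α KO in the lamina propria-like subcluster, and at 369 CPM [294 to 458] and 264 CPM [185 to 366] in the telocyte-like subcluster, with overlapping intervals in both libraries. The lamina propria-like nuclei also held Grem1, with 26 UMIs in WT and 8 in HIF-1α KO.

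The highest Grem1 and Chrdl1 levels of any subcluster were in subcluster 6, which was led by Ntrk3 and Rxfp1 and met too few markers for a name. Grem1 was at 248 CPM [174 to 343] in its 57 WT nuclei and 437 CPM [277 to 656] in its 17 HIF-1α KO nuclei. Chrdl1 was at 241 CPM [168 to 335] and 285 CPM [159 to 470.03]. The shares of these nuclei with a UMI were 40.4% in WT and 35.3% in HIF-1α KO for Grem1. For Chrdl1 they were 31.6% and 23.5%. The intervals do not cover differences between nuclei. Bmp7 had 0 UMIs in the nuclei of subcluster 6 in both libraries. Bmp5 was at 89.5 CPM in WT and 19.0 CPM in HIF-1α KO there, from 13 and 1 UMIs. The highest Bmp5 and Bmp7 levels and the highest Grem1 and Chrdl1 levels were therefore in different subclusters. The lamina propria-like subcluster held Bmp4 and Grem1 together. Whether single nuclei held both ligand and antagonist transcripts was not tested. Subcluster 0, with 114 WT and 51 HIF-1α KO nuclei, mostly from the smooth muscle-like class, was led by the epithelial transport genes Slc13a2 and Aqp4 and still held 31 and 26 Grem1 UMIs.

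**Figure D2:**
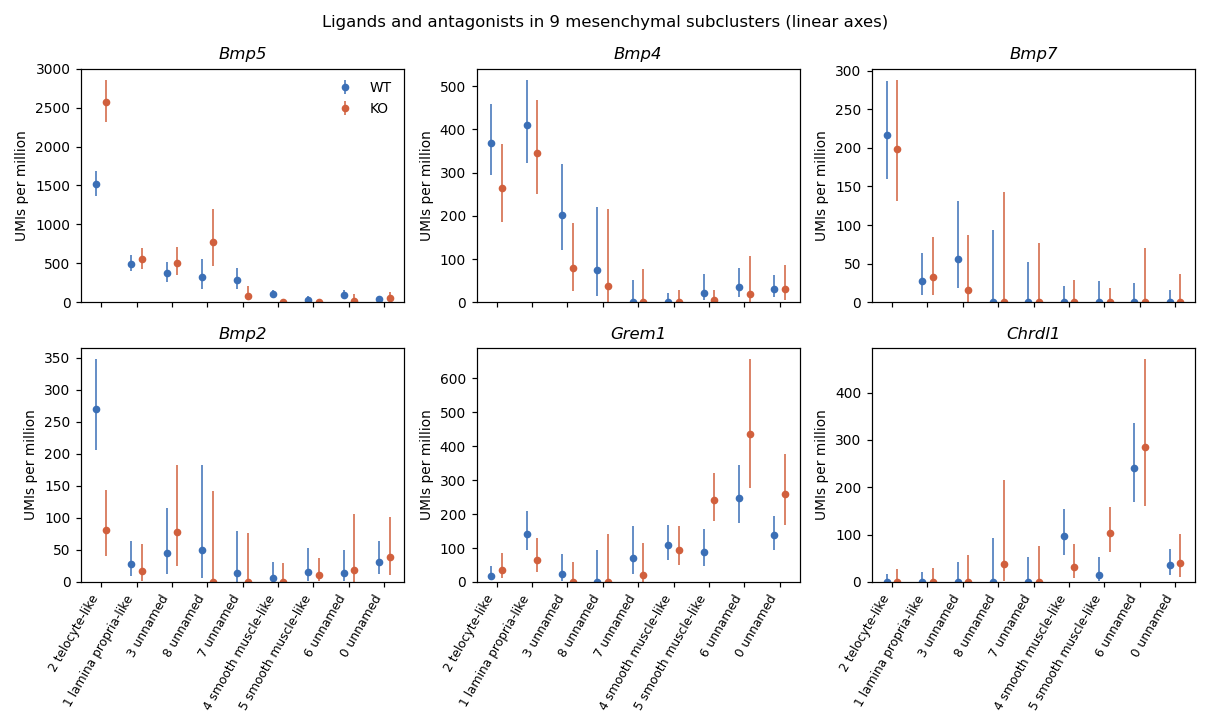
Level of the ligand and antagonist genes (y axis, UMIs per 1000000, linear and starting at 0) in the 9 subclusters of fibroblast-like and smooth muscle-like nuclei (x axis, by number and name); points are 1 library each and bars are 95% exact Poisson intervals. Bmp5 and Bmp7 peak in the telocyte-like subcluster 2, Bmp4 in subclusters 1 and 2, and Grem1 and Chrdl1 in subcluster 6.

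Among the targets, Id1 (chr2:152736251-152737410, plus strand) was the best measured, with 1602 UMIs in WT and 2134 in HIF-1α KO. It was found in each of the 11 named classes and was highest in the surface absorptive-like class. Surface absorptive-like nuclei were at 208 CPM [189 to 228] in WT and 138 CPM [129 to 148] in HIF-1α KO. Goblet-like nuclei were at 158 CPM [140 to 178] and 83.5 CPM [75.5 to 92.1], and blood endothelial-like nuclei, with 35 and 12 UMIs, at 192 CPM [134 to 268] and 100 CPM [51.8 to 175]. The stromal classes were lower. Fibroblast-like nuclei were at 64.5 CPM [46.0 to 87.8] and 59.6 CPM [38.2 to 88.7], and smooth muscle-like nuclei at 72.1 CPM [53.2 to 95.6] and 68.5 CPM [46.9 to 96.7]. No class met the 2-fold call for Id1 in both libraries, since the surface absorptive-like log2 ratio to all other nuclei was 1.01 in WT and 0.89 in HIF-1α KO.

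Id2 (chr12:25093799-25097140, minus strand) had only 68 UMIs in WT and 107 in HIF-1α KO. Its highest level among the 11 named classes was in the enteroendocrine-like nuclei, the hormone-secreting cells of the epithelium, at 26.7 CPM [13.3 to 47.8] and 24.4 CPM [13.7 to 40.3] from 11 and 15 UMIs. These nuclei met the 2-fold call in Id2 alone of the 9 genes, a call that 6.86% of all genes met there. Immune-like nuclei also met it for Id2 alone, against 7.16% of all genes, but from 3 and 6 UMIs, and their log2 ratios of 1.04 and 1.22 had intervals that reached below 0 in both libraries. The small unnamed cluster 20, of 13 WT and 30 HIF-1α KO nuclei, had the hormone genes Gcg and Pyy among its leading genes. Its Id2 was at 80.2 CPM and 17.5 CPM, from 4 and 3 UMIs. Its Id3 was at 100 CPM and 11.7 CPM, from 5 and 2 UMIs.

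Id3 (chr4:136143497-136145755, plus strand) had 137 UMIs in WT and 276 in HIF-1α KO. Among the 11 named classes, lymphatic endothelial-like nuclei led with 32.9 CPM [13.2 to 67.7] and 54.2 CPM [21.8 to 112], from 7 UMIs in each library, and met the 2-fold call in Id3 alone, as 6.81% of all genes did. Blood endothelial-like nuclei met it in Id3 alone as well, against 6.7% of all genes, from 4 and 3 UMIs and with intervals of the ratio that reached below 0. Read against these shares, 1 gene of 9 is near the background for the enteroendocrine-like, immune-like and endothelial-like classes. The same holds for the count of 1 gene of 9 in the surface absorptive-like class.

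To set the ligand sources beside the Id genes along the crypt, 9 epithelial clusters, taken as non-secretory, were ordered. The order was that of the log2 ratio of surface to base marker UMIs, none of which belongs to the pathway. The unnamed clusters 1, 2 and 3 were among them. Cluster 2 had AY036118, Gpx2, Igkc and Vip among its leading genes. Its level of the goblet cell mucin gene Muc2 was 1013 CPM in WT and 1631 CPM in HIF-1α KO, so its place on the axis is uncertain. The index ran from -1.05 in the WT crypt base stem-like cluster to 4.65 in the uppermost WT surface cluster, and from -0.88 in a HIF-1α KO cycling-like cluster to 5.54. At the low end lay the crypt base stem-like nuclei, with Lgr5 and Smoc2 among their leading genes, and the cycling-like clusters. At the high end lay both surface absorptive-like clusters, of which the uppermost was led by Ifit1bl1, Clca4a and Car4. The uppermost passed 10 of 10 surface markers and the one below it only 4 of 10, so the name is weaker there.

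Of the 9 genes, Bmp2 and Id1 were at least 2-fold higher in surface absorptive-like than in crypt base stem-like nuclei in both libraries (2 of the 5 genes with at least 50 UMIs), a call that 10.1% of 10267 genes met. Id1 was at 56.7 CPM [41.5 to 75.6] in WT and 67.9 CPM [54.1 to 84.0] in HIF-1α KO at the base, a surface-to-base log2 ratio of 1.87 [1.43 to 2.34] in WT and 1.02 [0.70 to 1.36] in HIF-1α KO. The base levels overlapped between the genotypes, and the surface levels did not. In HIF-1α KO the ratio fell under 2-fold in 3 of 8 alternative settings, with log2 values of 0.63 when nuclei were thinned to 1000 UMIs, 0.91 with equal weights and 0.96 at clustering resolution 2.

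Bmp2 was at 12.3 CPM [5.91 to 22.7] and 15.4 CPM [9.24 to 24.0] in the crypt base stem-like nuclei. Its surface-to-base log2 ratio was 2.80 [1.89 to 3.88] in WT and 2.22 [1.56 to 2.97] in HIF-1α KO. Most of the rise lay in the uppermost surface cluster, which was at 142 CPM [121 to 166] and 94.8 CPM [84.1 to 106], against 29.8 CPM [20.5 to 41.9] and 48.1 CPM [40.5 to 56.7] in the surface cluster below it. Id1 had the reverse order in these 2 clusters, with 237 CPM [209 to 267] and 151 CPM [138 to 166] in the lower and 179 CPM [154 to 205] and 125 CPM [112 to 138] in the uppermost.

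Over the 9 clusters the Spearman correlation of the index with the level was 0.92 in WT and 0.87 in HIF-1α KO for Id1 and 0.87 in both libraries for Bmp2. For Id2 it was 0.67 and 0.55, on 35 and 63 UMIs. For Id3 it was 0.80 and 0.73, on 56 and 168 UMIs, and the highest Id3 level in WT, 12.5 CPM, was in the unnamed cluster 2. The clusters of a library share its depth and free RNA, so these values describe the order and carry no test.

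Id2 and Id3 had enough UMIs but did not meet the call along the axis, since their surface-to-base log2 ratios of 0.77 and 0.80 in HIF-1α KO were under 2-fold. Id2 was at 2.47 CPM [0.30 to 8.90] and 4.04 CPM [1.31 to 9.43] at the base and at 6.80 CPM [3.81 to 11.2] and 6.87 CPM [4.93 to 9.32] at the surface. Id3 was at 1.23 CPM [0.03 to 6.87] and 8.08 CPM [3.88 to 14.9] at the base and at 7.71 CPM [4.49 to 12.3] and 14.1 CPM [11.2 to 17.4] at the surface. For both genes the interval of the surface-to-base log2 ratio reached below 0 in both libraries.

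A ranking of single nuclei by their own marker UMIs, in place of clusters, gave the same picture for Id1 and Bmp2. Split into 5 equal groups from base to surface, WT nuclei had Id1 levels of 70.4, 87.1, 112, 141 and 199 CPM. HIF-1α KO nuclei had 53.6, 66.8, 88.0, 137 and 132 CPM, so the top groups did not differ beyond their intervals there. In the same ranking the HIF-1α KO intervals of the lowest and highest groups did not overlap for Id3, at 6.82 CPM [4.22 to 10.4] and 14.7 CPM [11.3 to 18.8], nor for Id2, at 2.92 CPM [1.34 to 5.55] and 8.52 CPM [5.97 to 11.8]. In WT they overlapped for both genes. Bmp2 went from 6.71 CPM in the lowest to 85.1 CPM in the highest group in WT and from 15.3 to 79.3 CPM in HIF-1α KO.

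**Figure D3:**
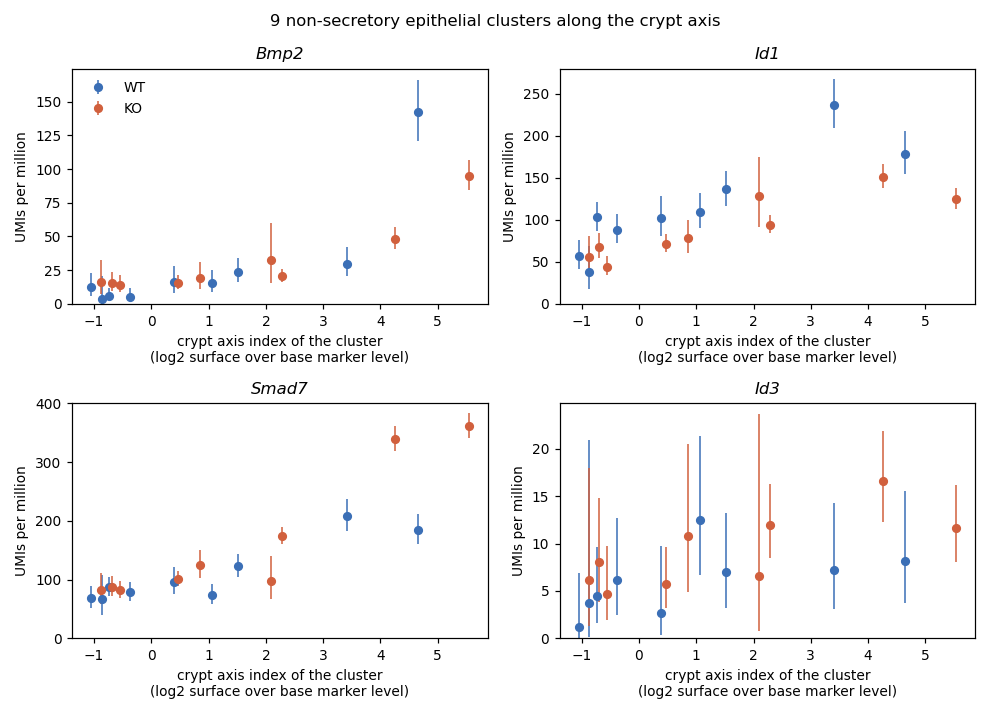
Levels of Bmp2, Id1, Smad7 and Id3 (y axis, UMIs per 1000000, linear and starting at 0) in the 9 non-secretory epithelial clusters against the crypt axis index (x axis, log2 ratio of surface to base marker level) of each library; points are 1 cluster each and bars are 95% exact Poisson intervals. Bmp2 rises mainly in the uppermost cluster, Id1 peaks in the cluster below it, and Smad7 separates the libraries at the surface.

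Levels of Id1 also differed within the goblet-like nuclei. The goblet-like cluster in which all 10 of 10 goblet markers passed was at 269 CPM [233 to 308] in WT and 119 CPM [104 to 136] in HIF-1α KO, while another was at 55.0 CPM [38.8 to 75.9] and 46.4 CPM [37.0 to 57.6]. The same marker-rich cluster had the higher Bmp2, at 56.9 CPM [41.2 to 76.6] and 41.8 CPM [33.1 to 52.1], and the higher Id3, at 33.1 CPM [21.4 to 48.8] and 19.0 CPM [13.3 to 26.4]. Id1 and Bmp2 were thus both high in the marker-rich goblet cluster. Both were also high in the surface absorptive-like class, but they peaked in different clusters of it.

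Between the genotypes, a gene was called when it passed 1.5-fold with at least 50 UMIs in the class. In fibroblast-like nuclei, 2 of the 6 genes with enough UMIs, Bmp2 and Grem1, were lower in HIF-1α KO, against 6.44% of 4286 genes. The log2 ratio of HIF-1α KO over WT was -1.39 [-2.23 to -0.64] for Bmp2, and its value ran from -1.62 to -1.28 over the 9 alternative settings. For Grem1 it was -0.78 [-1.78 to 0.14], an interval that spans 0. Within the telocyte-like subcluster the log2 ratio of Bmp2 was -1.74 [-2.82 to -0.80].

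The main stromal ligands did not all share this direction, and none passed 1.5-fold in the class. Bmp5 was higher in HIF-1α KO fibroblast-like nuclei by a log2 ratio of 0.58 [0.40 to 0.76], just under the 1.5-fold call, and by 0.76 [0.54 to 0.98] in the telocyte-like subcluster. Bmp4 and Bmp7 were lower in HIF-1α KO fibroblast-like nuclei, with log2 ratios of -0.47 [-0.86 to -0.09] and -0.23 [-0.90 to 0.41]. The goblet cell mucin gene Muc2 was found in these nuclei at 493 CPM in WT and 654 CPM in HIF-1α KO, against 4718 CPM and 3900 CPM in goblet-like nuclei, and the part of such background in the ratios was not tested.

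In smooth muscle-like nuclei, Grem1 was the only one of 3 tested genes past 1.5-fold and was higher in HIF-1α KO, against 12% of 4276 genes. Its log2 ratio was 0.65 [0.24 to 1.06], and it fell under the call in 5 of 9 alternative settings, with values down to 0.42. Its subclusters were not alike. Grem1 went from 88.8 CPM [45.9 to 155] to 242 CPM [178 to 322] in the smooth muscle-like subcluster 5 but was at 108 CPM [64.9 to 168] and 94.6 CPM [48.9 to 165] in the smooth muscle-like subcluster 4. Chrdl1, with a log2 ratio of -0.02 [-0.61 to 0.57] in the class, was at 14.8 CPM [1.79 to 53.4] in WT and 103 CPM [63.0 to 159] in HIF-1α KO in subcluster 5. The nuclei of subcluster 5 also differed in depth, with medians of 2305 UMIs in WT and 5563 UMIs in HIF-1α KO, and in the smooth muscle myosin gene Myh11, at 1650 CPM and 4906 CPM, against 4194 CPM and 6948 CPM in subcluster 4. The part of these in the Grem1 and Chrdl1 values was not tested. Bmp5, with 46 UMIs in the smooth muscle-like class, was under the limit for a call. It was at 64.6 CPM [46.7 to 87.0] in WT and 6.42 CPM [1.32 to 18.8] in HIF-1α KO, from 43 and 3 UMIs. Its log2 ratio was -3.33 [-5.66 to -1.69], opposite to that in fibroblast-like nuclei, and the part of free RNA in it was not tested.

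Id1 was past 1.5-fold lower in HIF-1α KO in 4 of the 6 named epithelial classes and in neither stromal class. It was called lower in the surface absorptive-like nuclei (1 of 4 genes tested, against 14.9% of 9240 genes), with a log2 ratio of -0.59 [-0.76 to -0.42], but lost the call in 6 of 8 alternative settings, with values up to -0.45. In goblet-like nuclei Id1 and Id3 were lower (2 of 3, against 10.1% of 9153 genes). Id1 had a log2 ratio of -0.92 [-1.15 to -0.70] there and kept the call in 8 of 8 settings, whereas Id3 kept it in 3 of 8. In cycling-like nuclei Id1 was the single gene tested and had a log2 ratio of -0.97 [-1.36 to -0.59], against 7% of 7996 genes called lower.

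The same single-gene count stood in the enteroendocrine-like nuclei, where Id1 had a log2 ratio of -0.73 [-1.54 to 0.07], against 6.04% of 4125 genes called lower. In crypt base stem-like nuclei the log2 ratio of Id1 was 0.26 [-0.28 to 0.81], in fibroblast-like nuclei -0.11 [-0.91 to 0.65], and in smooth muscle-like nuclei -0.07 [-0.77 to 0.60]. In the endothelial-like classes Id1 had too few UMIs for the call but was also lower in HIF-1α KO. It went from 108 CPM to 31.0 CPM in lymphatic endothelial-like nuclei, on 23 and 4 UMIs. In blood endothelial-like nuclei it went from 192 CPM to 100 CPM, on 35 and 12 UMIs. The difference between classes was not tested. The ligand that rose along the same epithelium, Bmp2, had a log2 ratio of -0.26 [-0.51 to -0.00] in the surface absorptive-like nuclei, and weighting each nucleus equally moved it to 0.05.

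Id3 in the surface absorptive-like nuclei went the other way from Id1. It was the single gene of 4 called higher, against 10.3% of all genes tested, with a log2 ratio of 0.87 [0.10 to 1.71] from 17 UMIs in WT and 84 in HIF-1α KO. In the goblet-like nuclei its log2 ratio was -0.59 [-1.25 to 0.09], from 31 and 57 UMIs. Id2 in the surface absorptive-like nuclei had a log2 ratio of 0.01 [-0.87 to 0.97].

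**Figure D4:**
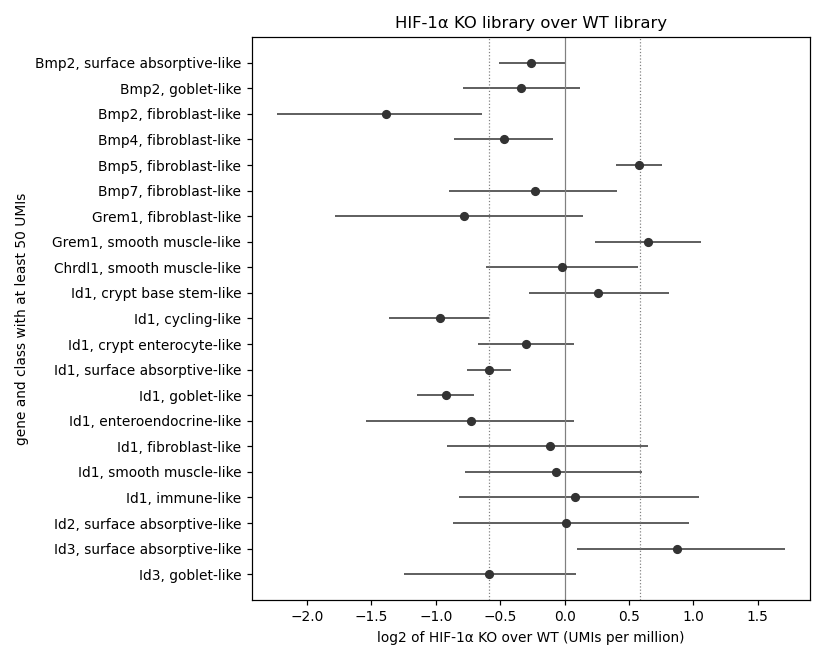
Log2 ratio of the HIF-1α KO over the WT library (x axis, of UMIs per 1000000) for each gene and named class with at least 50 UMIs over both libraries (y axis); bars are 95% exact intervals of counting error and dotted lines mark 1.5-fold. Bmp2 in fibroblast-like nuclei and Id1 in cycling-like and goblet-like nuclei lie farthest to the left, and Id3 in surface absorptive-like nuclei farthest to the right.

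Of the 47 other genes of the pathway, 31 had enough UMIs for the class comparison, and 26 of these were at least 2-fold higher in at least 1 named class in both libraries, as 39.1% of all 14393 genes were. Fibroblast-like nuclei met the call for 13 of 31, against 10.1% of all genes, among them the ligand genes Bmp6 and Inhba, the modulators Fstl1, Bmper, Twsg1 and Nbl1, the receptors Bmpr1b, Acvr1, Acvrl1 and Eng, and Smad9, Smad6 and Atoh8. Bmp6, a ligand close to Bmp5 and Bmp7, was at 298 CPM in WT and 229 CPM in HIF-1α KO there, and Inhba, which encodes the activin A subunit, at 96.7 CPM and 42.2 CPM. Smad6, an inhibitory Smad induced by BMP signals, was at 182 CPM and 221 CPM, against 46.1 CPM and 54.6 CPM in all other nuclei.

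Smooth muscle-like nuclei met the call for 12 of 31, against 7.65% of all genes, among them the antagonists and modulators Chrd, Chrdl2, Fstl1, Bmper and Nbl1, the receptor genes Bmpr1a and Bmpr1b, the co-receptor Rgma, and Smad9, Id4 and Atoh8. Fstl1, which encodes a secreted follistatin-like glycoprotein, had its highest level in fibroblast-like nuclei, at 155 CPM and 211 CPM. Bmpr1a, the type I receptor most widely used by BMP2 and BMP4, was at 461 CPM and 546 CPM in smooth muscle-like nuclei, against 211 CPM and 193 CPM elsewhere.

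Blood endothelial-like nuclei met the call for 7 of 31, against 6.7% of all genes (Bmp6, Fstl1, Bmpr2, Acvrl1, Eng, Smad6 and Atoh8), and the type II receptor gene Bmpr2 was at 940 CPM in WT and 961 CPM in HIF-1α KO, against 188 CPM and 170 CPM elsewhere. Lymphatic endothelial-like nuclei met it for 6, against 6.81% (Bmp6, Fstl1, Acvrl1, Eng, Smad1 and Smad5). The receptor Smad gene Smad1 was at 554 CPM and 488 CPM there and Smad5 at 174 CPM and 132 CPM. Enteroendocrine-like nuclei met it for Bmpr1b and Smad9, 2 of 31 against 6.86%.

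In the epithelium few pathway genes were called. Surface absorptive-like nuclei met the call for Bmp3, Bmp8b and Smad7 (3 of 31, against 5.41%), and crypt base stem-like nuclei (1 of 31, against 2.3%) for Rgmb, a BMP co-receptor gene, at 211 CPM in WT and 204 CPM in HIF-1α KO. Along the axis 16 of the 47 had enough UMIs. Bmp8b and Smad7 were higher at the surface, against 10.1% of all genes, and Acvr2b, Rgmb and Smad5 higher at the base, against 16.5%. The Bmp8b ratio rested on 1 UMI at the WT base and its interval there reached below 0. Smad7, an inhibitory Smad induced by BMP and by TGF-β, was at 67.8 CPM [51.1 to 88.2] and 87.3 CPM [71.6 to 105] at the base and 196 CPM and 351 CPM at the surface. The receptor gene Bmpr1a was at 206 CPM and 220 CPM at the base and 173 CPM and 156 CPM at the surface.

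Smad7 and Id1, both targets, differed between the libraries in opposite directions at the surface. Smad7 was higher in HIF-1α KO surface absorptive-like nuclei by a log2 ratio of 0.84 [0.69 to 0.99], and it also passed 1.5-fold in fibroblast-like, smooth muscle-like and immune-like nuclei, at 0.92, 1.10 and 1.23. Smad6 in the surface absorptive-like nuclei was at 48.5 CPM in WT and 58.3 CPM in HIF-1α KO. In enteroendocrine-like nuclei Bmpr1b fell by 1.75 on the log2 scale in HIF-1α KO, from 236 CPM to 69.97 CPM. Of the pathway genes with enough UMIs, 2 of 16 were higher in HIF-1α KO fibroblast-like nuclei, against 10.7% of all genes tested there, and 2 (Inhba and Acvrl1) lower, against 6.44%. In smooth muscle-like nuclei 5 of 17 were higher, against 12%, and 1 (Bmpr2) lower, against 8.04%.

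The genes whose levels were most like those of each member over the 14 classes and unnamed clusters of both libraries (28 points, 12782 genes with at least 100 UMIs, Pearson correlation of log2 values after adding 10 CPM) differed by role. Bmp5 was closest to Bmp4 (0.942), Pdgfra (0.936) and Spon1 (0.935), and Bmp4 to Spon1 (0.961), Pdgfra (0.957) and Gfra2 (0.95). Bmp7 was closest to Mrc2 (0.959), Gfra2 and Lama1 (both 0.95). Grem1 was closest to the smooth muscle actin gene Acta2 (0.957), Synpo2 (0.952) and Sntg2 (0.946), and Chrdl1 to Slc6a17 (0.951), A630023A22Rik (0.946) and Ano4 (0.938).

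The highest correlations of Bmp2 and of the Id genes were lower than these. Bmp2 reached 0.755 with Nckap5, 0.753 with Rnf24 and 0.751 with the immediate-early gene Fos. Id1 was closest to Slc25a24 (0.872), S100a16 (0.796) and Capns1 (0.761), Id2 to the neuronal motor gene Kif1a and Celf3 (both 0.874) and Pim2 (0.866), and Id3 to Herc6 (0.814), Eml6 (0.813) and Kctd17 (0.795). The points of a library share its depth and free RNA, so the correlations are a description.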

How the data were processed

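Single-nucleus RNA was measured in 2 libraries, 1 per genotype. The authors ran Cell Ranger 7.0.1 on mm10 and the deposited matrices hold raw counts, the UMIs of each gene in each called barcode; whether intronic reads were counted is not given in the sources used here. From these counts nuclei with 400 to 5000 genes and at most 10% mitochondrial UMIs were kept, as the authors did against low quality and doublets, and no doublet caller was run here. With R 4.3.3 and Seurat 5.3.0, 2000 variable features without the 9 genes and the 47 pathway genes, anchor integration, 30 principal components, resolution 1 and seed 1 gave the clusters. A cluster took a class name when at least 3 markers had a log2 ratio of at least 1 (with 10 CPM added) and were found in 10% of its nuclei, and no other class had more markers among its 10 leading genes; these limits were set with the clusters in view. The crypt axis index is the log2 ratio of the summed CPM of 10 surface to 9 base markers.

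UMIs were summed per library and class and divided by the class total. Intervals are exact Poisson, exact binomial or exact conditional at 95% (Python 3.11.15, numpy 2.4.6, pandas 2.3.3, scipy 1.17.1), and a count of 0 was set to 3 UMIs in ratios. Calls needed 50 UMIs and 2-fold in both libraries, or 1.5-fold between libraries; the calling was tested on simulated data. The 9 genes and all lists were chosen with earlier results of these data known. Named are the 9 genes, the pathway genes called for a class, except an item that is not reported here, with values for the highest in each role, and the 3 genes most like each of the 9 genes; Bmpr1a and Smad6 along the axis, Muc2 and the pathway genes of the library comparison were chosen after their values were seen. Alternatives were all barcodes, resolutions 0.5 and 2, no integration, thinning to 1000 UMIs, equal weights, TMM scaling (edgeR 4.0.16), 5 groups of ranked nuclei and a minimum of 20 UMIs. Gene positions are from GENCODE on GRCm38, the same build as mm10, and promoters from RefSeq.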

Additional observations from a re-analysis of the deposited data

Results flagged for a closer look

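As point values, Grem1 passed 1.5-fold in opposite directions in the stromal classes. Its log2 ratio of HIF-1α KO over WT was 0.65 in smooth muscle-like nuclei and -0.78 in fibroblast-like nuclei. Id3 did so in the epithelium, with a log2 ratio of 0.87 in surface absorptive-like nuclei and -0.59 in goblet-like nuclei. The intervals of the fibroblast-like Grem1 value and of the goblet-like Id3 value include no difference. Grem1 kept the call in 4 of 9 alternative settings in smooth muscle-like and in 9 of 9 in fibroblast-like nuclei. Id3 kept it in 7 of 8 in surface absorptive-like and in 3 of 8 in goblet-like nuclei. With 1 library per genotype, neither difference between classes was tested.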

How the results depend on the processing

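A total of 61 results were recomputed under 410 alternatives, and 373 values stayed within the counting interval of the reported value or, for a count, within 1.5 times of it. No replicate could be left out, and no paired analysis was possible because each genotype had 1 library. Among class ratios to all other nuclei (log2), thinning to 1000 UMIs gave 6.19 for Bmp4 in HIF-1α KO, 4.89 and 6.90 for Bmp5 in WT and HIF-1α KO, 5.99 for Bmp7 in HIF-1α KO, and 4.54 and 5.80 for Chrdl1; equal weights gave 6.12 for Bmp4 in HIF-1α KO, 4.84 and 7.06 for Bmp5 and 0.29 for Id3 in WT lymphatic endothelial-like nuclei. For Id1 in surface absorptive-like nuclei, all barcodes gave 0.83 and 0.70, no integration 0.64 and 0.61, and resolution 2 gave 0.84 in WT.

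The cause of these moves was not tested. For HIF-1α KO over WT, thinning moved Bmp4 in fibroblast-like nuclei to -1.01, past 1.5-fold, and equal weights moved Id1 in goblet-like nuclei to -0.66. Along the axis, thinning gave 0.63 for Id1 in HIF-1α KO and turned Id2 to -0.56 in WT and -0.67 in HIF-1α KO. Where no cluster was named crypt base stem-like, the crypt cluster of lowest index stood in, a choice made after seeing the data; without integration Bmp2 was then 4.71 and Id2 turned to -0.70 in WT, at resolution 0.5 Id1 was 1.23 in WT and 1.44 in HIF-1α KO, and with all barcodes Id1 was 1.51 in HIF-1α KO. With a minimum of 20 UMIs in place of 50, more genes passed 1.5-fold: 868 lower in fibroblast-like, 1136 higher in smooth muscle-like, 1456 higher and 2172 lower in surface absorptive-like, 1617 lower in goblet-like, 1035 lower in cycling-like and 740 lower in enteroendocrine-like nuclei, since more genes were tested.

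Further alternatives were added after seeing the data, namely totals without ribosomal protein and mitochondrial genes, fibroblast-like nuclei without their smaller cluster and smooth muscle-like nuclei without subcluster 0. TMM scaling shifted the log2 ratios by 0.14 in surface absorptive-like and by -0.11 in fibroblast-like and blood endothelial-like nuclei and -0.16 in lymphatic endothelial-like nuclei. Classes under 50 nuclei were not compared.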
